A study of Mus musculus with 37 samples.

Results

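This comparison set 12 mice with a brain injury against 5 sham mice, with the 2 hemispheres of every mouse averaged, so that each mouse counted once. Astrocytes of the contralateral and of the ipsilateral hippocampus gave separate libraries, and 17 of the 20 mice in the series have both, which makes 34 of the 37 libraries. For each of the 17 mice the contralateral and ipsilateral log2 values of a gene were averaged, and the difference between the 12 injured and the 5 sham mice was taken. A difference that is present on both sides is kept by this average, and a difference present on 1 side is diluted.

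The injured mice received a controlled cortical impact, in which a piston strikes the exposed cortex on 1 side. They comprised 4 PTE+ mice, which had repeated epileptic episodes on EEG and thus post-traumatic epilepsy, and 8 PTE- mice, which did not reach that definition. The sham mice had the craniectomy and, like the injured mice, the implanted electrode, but no impact. All mice were wild type and male, of the outbred strain that the methods call CD1 and the deposited labels CD31, and the time label of every library is 4 months after injury. The labels name the hippocampus as the tissue, whereas the methods describe the dissection of cortices and hippocampi. Cells were taken on magnetic beads that bind ACSA-2, an astrocyte surface antigen, and RNA was amplified with the SMART-Seq V4 kit. In such bulk RNA fewer cells of a type and less RNA per cell cannot be told apart.

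Astrocytes take up glutamate and potassium, supply glutamine, lactate and cholesterol, and hold synapses and vessels in contact. After injury they become reactive, which is usually recognised by more of the intermediate filaments GFAP, vimentin and nestin, and by complement and other immune transcripts. How much of such a state is left months after an impact is the question that a comparison of both sides together addresses. The average alone does not tell whether a difference reaches the side that was not struck, so values of each side are given for many genes.

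Library totals ran from 32526127 to 59846479 counts (median 47232756 over the 34 libraries), and 9020 to 15545 genes were detected in a library. The 20 astrocyte markers summed to between 102100 and 148100 TPM, a unit scaled to transcript length and library total, in the injured mice and between 112700 and 151800 in the sham mice, and none of these markers was at 3 counts or fewer in every library. The deviations of the 2 libraries of 1 mouse from their group means correlated only weakly, with a median of 0.082 over the 17 mice and a range of -0.029 to 0.314. Libraries with few detected genes were an ipsilateral library of the PTE- mouse a8_11 with 9020, one of the sham mouse a9_9 with 10886, one of the PTE- mouse a8_14 with 11271 and a contralateral library of the PTE- mouse a9_14 with 11855. Averaged over the 2 libraries of a mouse, detected genes had a median of 13790.75 in the injured mice (12152.5 to 15426). In the sham mice the median was 14830.5 (12594 to 15433). The median difference over all 15445 genes tested was -0.07 on the log2 scale.

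No gene passed an adjusted p of 0.05 in limma (0 of 15445, or 0%). The smallest adjusted p was 0.435. At an unadjusted p under 0.05 there were 384 genes, which is 2.49% of those tested, where the threshold by itself allows 5%. Of these, 130 (0.842%) were higher and 254 (1.64%) were lower in the injured mice. Counts summed over the 2 sides of a mouse gave 0 genes in edgeR, with 385 at an unadjusted p under 0.05. DESeq2 on the same sums gave 18, all higher in the injured mice. Of those 18, 13 had more than 3 counts in at most 10 of the 34 libraries, and only C4b, Cfap100 and Igfbp5 exceeded 3 counts in all of them.

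The criteria of the study's methods, an unadjusted p under 0.05, a 1.2-fold or larger change and more than 5 TPM on average in either group, were met by 281 genes (1.82%). Of these, 113 (0.732%) were higher and 168 (1.09%) lower. With another scaling of the libraries (RLE size factors) the split was 130 higher and 129 lower, and on log2(TPM + 1) it was 146 and 120, so the balance of higher and lower genes depended on the scaling. Of the 281 genes, 90 exceeded 3 counts in all 34 libraries, 42 of them higher and 48 lower. Only 6 of the 281 had an unadjusted p under 0.05 on each side taken alone, 61 had it contralaterally and 99 ipsilaterally, and 127 had it on neither side. The sign of the difference was opposite on the 2 sides for 3 of them. Leaving out a single mouse gave between 213 and 426 genes. The lowest count was without the sham mouse a9_9, with 55 higher and 158 lower, and without a8_16 there were 57 higher and 169 lower. The highest was without the sham mouse a9_10, with 232 higher and 194 lower, so the balance also depended on single sham mice.

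**Figure D1:**
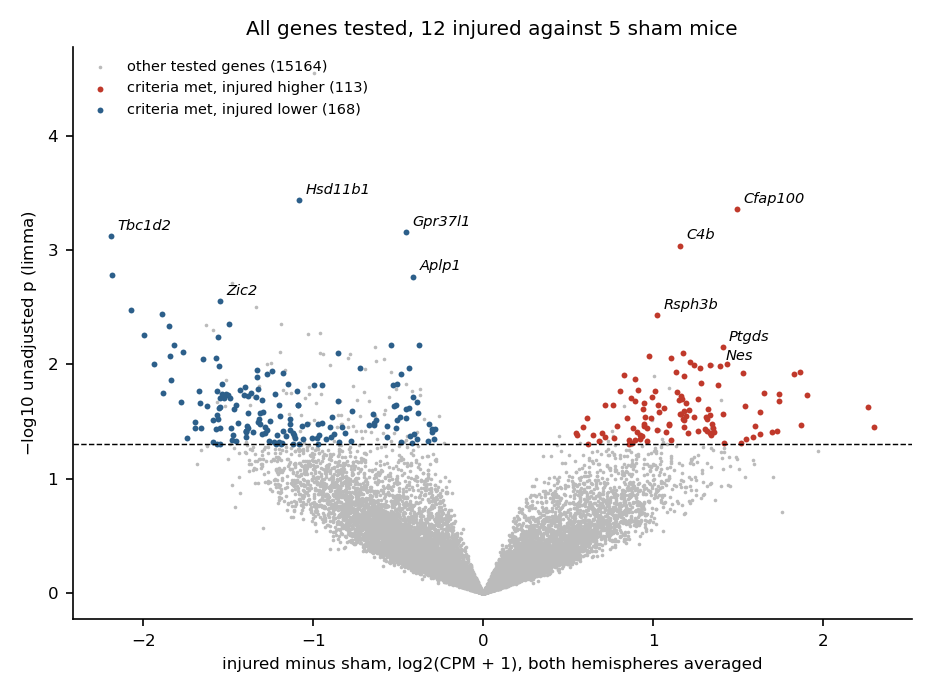
Each point is 1 of the 15445 genes tested. The x axis gives the injured minus sham difference of log2(CPM + 1), averaged over both hemispheres, and the y axis -log10 of the unadjusted limma p, with a dashed line at p of 0.05. Coloured points meet the criteria of the methods, 113 higher (red) and 168 lower (blue). No point passes the adjustment over all genes.

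The genes named next had the smallest p among those that met the criteria with the same sign on both sides, 12 in each direction. Values are log2(CPM + 1) averaged over the 2 sides of a mouse, and fold changes are on that scale. Since smallest p chose these 24 genes, their p-values describe them and are not independent of the choice. For all 24 the adjusted p was above 0.05. The exact permutation test named beside them used all 6188 assignments of 5 sham mice and is 2-sided, with 0.000162 as its smallest p.

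Among the higher genes were a pair of genes of the motile cilium. Cfap100 (ENSMUSG00000048794, chr6:90403479-90428797, minus strand), which codes for a cilia- and flagella-associated protein, stood at 3.14, 3.41, 3.58, 3.61 and 4.80 in the 5 sham mice. In the 12 injured mice it ran from 4.49 to 5.92 with a median of 5.26. The highest sham mouse, a9_9, overlapped the injured range, and 8 injured mice lay above all shams. The difference was 1.49 (SE 0.36, 2.82-fold, exact permutation p = 0.000808), and it was much the same contralaterally (1.52) and ipsilaterally (1.47). Mean TPM was 43.3 ± 12.9 (SD, n = 12) in injured and 16.3 ± 9.53 (n = 5) in sham mice. Rsph3b (chr17:6904413-6948682, minus strand), a radial spoke head protein of the axoneme, was 3.99, 4.53, 4.85, 4.94 and 5.13 in the shams and 4.88 to 6.29, median 5.88, in the injured mice. Its difference was 1.03 (SE 0.31, exact permutation p = 0.00162), with 10 of 12 injured mice above every sham. The near-identical copy Rsph3a had a difference of 0.03, so how the counting divided reads between these copies makes the Rsph3b value uncertain. Cfap100 overlaps Zxdc on the opposite strand, and the kit does not mark the strand, so reads of such a pair cannot be told apart.

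Markers of ependymal cells and choroid plexus, the ciliated and secretory linings of the ventricles, were read beside these genes. All 8 of 8 markers had positive differences, with a median of 0.69, and none had an unadjusted p under 0.05, where 0.842% of all genes were called higher. The median was 0.05 contralaterally and 1.34 ipsilaterally. Foxj1, the transcription factor of motile ciliogenesis, had 20.2 TPM in injured and 10.8 in sham mice (difference 1.02, SE 0.56, p = 0.0820 in limma). Ttr, the transthyretin gene of choroid plexus, had 571 and 23.8 TPM (difference 1.76, SE 1.31, p = 0.195 in limma) and exceeded 3 counts in only 10 libraries. The summed TPM of the 8 markers was 376 to 5926 in the injured and 453 to 1886 in the sham mice, and 4 of 12 injured mice lay above all shams. A wider list of 61 genes of the axoneme, taken by symbol family (Cfap, Rsph, Dnah, Dnai, Dnaaf and Tekt) after the values of Cfap100 and Rsph3b had been seen, held 49 positive and 12 negative differences with a median of 0.55 (0.10 contralaterally and 0.64 ipsilaterally), and 3 were higher and 1 lower at an unadjusted p under 0.05. Besides Cfap100 and Rsph3b these were Cfap46 (1.73, SE 0.78) and, in the lower direction, the dynein heavy chain Dnah7b (-1.14, SE 0.50). The part of the ependymal transcripts in the Cfap100 and Rsph3b differences was not tested.

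**Figure D2:**
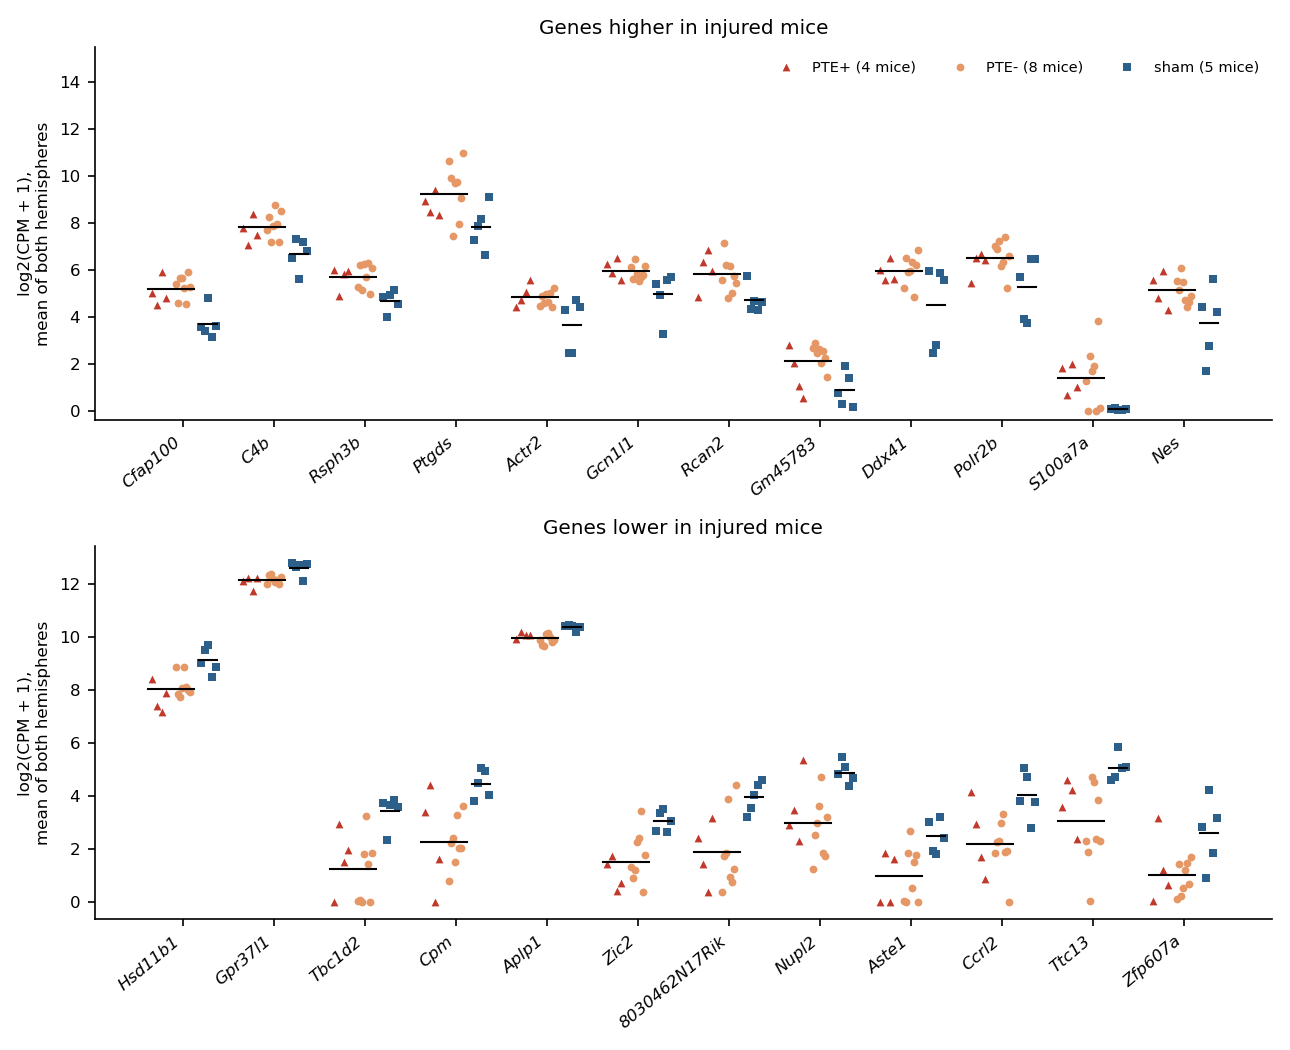
Each point is 1 mouse. The y axis gives log2(CPM + 1) averaged over both hemispheres for the 12 genes with the smallest p in each direction, with PTE+ (triangles), PTE- (circles) and sham mice (squares). Horizontal bars are the means of the 12 injured and the 5 sham mice. The groups overlap for every gene except Aplp1, in which the injured mice lie below all shams.

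A complement gene, C4b, was also among the 12 higher genes. C4b (ENSMUSG00000073418, chr17:34728380-34743882, minus strand) codes for complement component 4, the substrate that C1s cleaves when the classical pathway starts. It was 5.60, 6.50, 6.80, 7.20 and 7.32 in the sham mice and 7.05 to 8.78, median 7.83, in the injured mice, so 9 of 12 injured mice exceeded all shams. The difference was 1.16 (SE 0.30, 2.24-fold, exact permutation p = 0.0021). Mean TPM was 87.8 ± 23.9 (SD, n = 12) against 43.5 ± 16.3 (n = 5). The log2 difference was 0.75 (SE 0.36) contralaterally and 1.57 (SE 0.37) ipsilaterally, and the excess of 0.81 on the ipsilateral side had an exact permutation p of 0.0790 (adjusted 0.563 over 48 genes). In DESeq2 on summed counts C4b had an adjusted p of 0.0134. C1ra, the protease C1r of the same pathway, did not meet the criteria, with 4.13 TPM in injured mice. It was at 0, 0, 0.01, 0.04 and 1.88 in the shams and at 0 to 4.17, median 1.36, in the injured mice. Its difference of 1.34 (SE 0.60, unadjusted p = 0.0360 in limma, exact permutation p = 0.0556) rested on 16 libraries with more than 3 counts, and it lost p under 0.05 in 7 of the 17 fits that left out a mouse. Among the mice with prefix a8 it was 0.01, against 2.10 among those with prefix a9. Of the 15 genes of the list of class I MHC and complement, 13 had positive differences with a median of 0.29, and C4b and C1ra were the 2 of 15 higher at an unadjusted p under 0.05, where 0.842% of all genes were. The abundant members B2m, the light chain of class I MHC (0.20, SE 0.31, p = 0.514 in limma), and H2-D1 (0.08, SE 0.32) gave no difference beyond their error.

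Ptgds (chr2:25466709-25470046, minus strand), the lipocalin-type prostaglandin D synthase, was the most abundant of the higher genes, with a mean of 2657 TPM in injured and 805 in sham mice. The log2 values were 6.65, 7.28, 7.86, 8.16 and 9.12 in the shams and 7.46 to 10.99, median 9.24, in the injured mice. Only 6 of 12 injured mice stood above all shams, and the SD of the injured group was 1.06. The difference was 1.41 (SE 0.47, exact permutation p = 0.0217). It is known as a transcript of choroid plexus, meninges and oligodendrocytes as well, and in the 3 injured mice that have a contralateral library only it was 10.02 or more, above the 5 contralateral sham libraries (7.05 to 9.32).

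Nes, which codes for the intermediate filament nestin of progenitors and reactive astrocytes, was 1.70, 2.76, 4.20, 4.40 and 5.60 in the shams and 4.27 to 6.06, median 5.0, in the injured mice. The shams spread over a wider range than the injured mice, and only 2 injured mice exceeded all of them. In the sham mouse a8_16 Nes was 0 contralaterally and 3.39 ipsilaterally, and in a9_9 it was 5.11 and 0.41. The difference was 1.39 (SE 0.49, exact permutation p = 0.0134), and without the sham mouse a8_16 it was 0.88 (limma p = 0.0673). With voom quality weights the Nes difference was 0.23 (p = 0.569 in limma). Tnc, which codes for the matrix glycoprotein tenascin C, was 1.19 higher (SE 0.51, exact permutation p = 0.0251), with 10 of 12 injured mice above every sham. Its p in limma was 0.0960 without a8_16 and 0.106 without a9_9. Tnc was 0 in the contralateral library of a8_16 and 1.35 in the ipsilateral library of a9_9. Among the injured mice it was 0.08 contralaterally in a8_9 and 0 ipsilaterally in a8_14. Cdkn1a, the cell cycle inhibitor p21 that also belongs to the list of glucocorticoid responses, was 1.10 higher (SE 0.48, exact permutation p = 0.0359), with a limma p above 0.05 in 5 of the 17 fits without a mouse and 0.110 without a9_9 as the highest. Hsph1, a cytosolic heat shock chaperone, was 1.03 higher (SE 0.42, exact permutation p = 0.0330). The Hsph1 difference was 2.09 ipsilaterally and -0.04 contralaterally, and the exact permutation p of that contrast was 0.0444 (adjusted 0.563). Without a9_9 the Hsph1 difference was 0.54 (limma p = 0.155). In the ipsilateral library of a9_9 Hsph1 was 0 and Cdkn1a 0.61, against 7.29 and 5.12 in its contralateral library.

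Genes of general function also stood among the 12. Actr2, a subunit of the Arp2/3 complex that branches actin, was 1.18 higher, and Gcn1l1, the activator of the translation kinase GCN2, was 0.97 higher. Rcan2, a calcineurin regulator, was 1.11 higher, and Ddx41, an RNA helicase, was 1.44 higher. Polr2b, a large subunit of RNA polymerase II, was 1.24 higher. For Actr2 (2.46, 2.46, 4.28, 4.41 and 4.70), Ddx41 (2.45, 2.78, 5.56, 5.87 and 5.94) and Polr2b (3.75, 3.89, 5.69, 6.46 and 6.48) 2 of the 5 sham mice stood apart below the rest, and the remaining shams lay inside or near the injured range. Gcn1l1 without a9_9 and Ddx41 and Polr2b without a8_16 or a9_9 had a limma p above 0.05, with 0.0559, 0.0658 and 0.0599 as the highest. The Gcn1l1 difference was 0.55 without a9_9, and the Ddx41 difference was 0.92 without a8_16. The low sham values of Actr2, Ddx41 and Gcn1l1 came from single libraries, as did the Polr2b value of a9_9. Ddx41 was 0.20 contralaterally and 4.71 ipsilaterally in a8_16, and 5.56 and 0 in a9_9, whose ipsilateral library had few detected genes. Gcn1l1 was 5.03 contralaterally and 1.53 ipsilaterally in a9_9. In the contralateral library of a8_16 and the ipsilateral library of a9_9, Actr2 was 0.37 and 0.65, and Polr2b was 3.18 and 1.37. Polr2b overlaps the abundant gene Igfbp7 on the opposite strand. S100a7a, an S100 calcium-binding protein, was 0.01 to 0.12 in the shams and 0 to 3.82, median 1.49, in the injured mice, with more than 3 counts in 16 of 24 injured and 2 of 10 sham libraries. It met the minimum of 5 TPM only through the injured group, so this split of libraries is not independent of the choice. Its mean over the 34 libraries was 6.3 TPM. Gm45783 was 1.22 higher and shares its strand and position with Vmn2r30, so its reads cannot be assigned with certainty.

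Hsd11b1 (ENSMUSG00000016194, chr1:193221634-193264075, minus strand), the enzyme that regenerates active glucocorticoid from its inactive form inside cells, was the lower gene with the smallest p. It was 8.48, 8.87, 9.01, 9.52 and 9.70 in the sham mice and 7.19 to 8.89, median 7.97, in the injured mice. All but 2 of the 12 injured mice lay below every sham. The difference was -1.08 (SE 0.26, exact permutation p = 0.00097), or 357.5 ± 99.6 TPM (SD, n = 12) against 692 ± 208 (n = 5). It was -0.58 (SE 0.27) contralaterally and -1.59 (SE 0.37) ipsilaterally, with an exact permutation p of 0.0320 for that contrast and 0.563 after adjustment over the 48 genes. Hsd11b1 overlaps Lamb3 on the opposite strand, and Lamb3 had at most 1198 counts in a library. Tsc22d3, the glucocorticoid-induced leucine zipper gene, was 8.32 to 8.63 in the shams and 6.87 to 8.87 in the injured mice, of which 9 were below all shams. Its difference was -0.72 (SE 0.26, exact permutation p = 0.0178). Of the 12 glucocorticoid response genes, Tsc22d3 was lower and Cdkn1a higher at an unadjusted p under 0.05, where 1.64% of all genes were lower and 0.842% higher. In this list 4 differences were positive and 8 negative, and the median was -0.16.

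Aplp1 (ENSMUSG00000006651, chr7:30434982-30445535, minus strand), a member of the amyloid precursor family, was the gene among the 24 without overlap between the groups. Its values were 10.19, 10.38, 10.41, 10.42 and 10.45 in the shams and 9.65 to 10.18, median 9.96, in the injured mice. The highest injured mouse and the lowest sham mouse were thus close together. The difference was small, -0.41 (SE 0.11, 1.33-fold lower), and the exact permutation p of 0.000162 is the smallest the test can give. Over all genes, 2 (0.0129%) had every injured mouse below every sham and 0 (0%) had every injured mouse above. The Aplp1 difference was -0.70 (SE 0.20) ipsilaterally and -0.12 (SE 0.15) contralaterally. Gpr37l1 (chr1:135160234-135167681, minus strand), an astrocyte-enriched orphan receptor, was 12.10, 12.65, 12.71, 12.75 and 12.78 in the shams and 11.75 to 12.39, median 12.15, in the injured mice. The sham mouse a9_10 was the lowest of the 5 and lay inside the injured range. The difference was -0.46 (SE 0.11, exact permutation p = 0.00145), with -0.34 contralaterally and -0.57 ipsilaterally, and mean TPM was 3351 ± 562 against 4431 ± 869. Both are abundant genes with more than 3 counts in all 34 libraries.

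The other lower genes were of low abundance. Tbc1d2, Cpm, Zic2, 8030462N17Rik, Aste1 and Zfp607a met the minimum of 5 TPM only through the sham group, in which they were higher, and all of these but Cpm drop out when the minimum is put on the mean of all mice. Tbc1d2, a Rab GTPase-activating protein, had 1.28 TPM in injured and 5.31 in sham mice and more than 3 counts in 11 of 24 injured and 9 of 10 sham libraries. Its difference was -2.19 (SE 0.56, exact permutation p = 0.00291), and 10 of 12 injured mice lay below every sham. Cpm, which codes for carboxypeptidase M, was 3.82 to 5.08 in the shams and 0 to 4.41 in the injured mice, with 11 of 12 below every sham (difference -2.18, SE 0.61). Zic2, a zinc finger transcription factor of neural progenitors, was 2.67 to 3.52 in the shams and 0.40 to 3.46 in the injured mice, also with 11 of 12 below every sham (difference -1.55, SE 0.46). For 8030462N17Rik (-2.07), Nupl2 (-1.89), Ttc13 (-1.99), Ccrl2 (-1.85), Aste1 (-1.49) and Zfp607a (-1.56) mean TPM in the sham mice was between 5.22 and 26.1. Ccrl2 codes for an atypical receptor that binds chemerin and Nupl2 for a nucleoporin. Each of these 6 genes exceeded 3 counts in 8 to 10 of the 10 sham libraries and in 9 to 21 of the 24 injured libraries. Zfp607a has a near copy, Zfp607b, with a difference of -1.06, and is uncertain for that reason, and Aste1 overlaps Atp2c1 and Nek11 on the opposite strand. In edgeR on summed counts 15 of all 24 genes had an unadjusted p under 0.05, and of the 9 low genes of this paragraph only Ttc13 (p = 0.0377) and Zfp607a (p = 0.0254) did.

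Of the markers of reactive astrocytes, Nes and C4b are described above, and Gfap and Vim had an unadjusted p above 0.05 in the average. Gfap was 8.42, 8.93, 9.17, 9.97 and 10.07 in the shams and 9.10 to 11.51, median 9.71, in the injured mice, and only 3 injured mice exceeded all shams. Its difference was 0.53 (SE 0.32, exact permutation p = 0.165). Vim was 0.71 higher (SE 0.42, exact permutation p = 0.160), with 0.17 contralaterally and 1.26 ipsilaterally (unadjusted p = 0.739 and 0.0263 in limma). Without the sham mouse a9_11 the Gfap difference was 0.31 and the Vim difference 0.34. Serpina3n (0.01, SE 0.54) was without a difference of either sign that exceeded its error. Lcn2, which codes for lipocalin, had more than 3 counts in 9 of 24 injured and 1 of 10 sham libraries, and Timp1, an inhibitor of metalloproteinases, in 6 of 24 and 0 of 10, so no fold is given for Timp1. Cxcl10, an interferon-induced chemokine, was 0.16 lower on average (SE 0.56), which joined -1.81 contralaterally to 1.49 ipsilaterally. The exact permutation p of that contrast was 0.0364, and 0.563 after adjustment. Of the 13 pan-reactive genes 10 had positive differences, with a median of 0.24 and none at an unadjusted p under 0.05. The list read for A1 astrocytes had 8 of 11 positive and a median of 0.45. Its 1 gene at p under 0.05 was lower, where 1.64% of all genes were. That gene was Amigo2, an adhesion protein, at 3.55 to 5.33 in the shams and 0.02 to 4.61 in the injured mice (difference -1.67, SE 0.64, exact permutation p = 0.0210). The list for A2 astrocytes had 8 of 10 positive and a median of 0.27, with none called. The pan-reactive median was 0.06 contralaterally and 0.79 ipsilaterally, and the A2 median -0.02 and 0.64. For the A1 list the 2 sides were close, at 0.30 and 0.33.

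**Figure D3:**
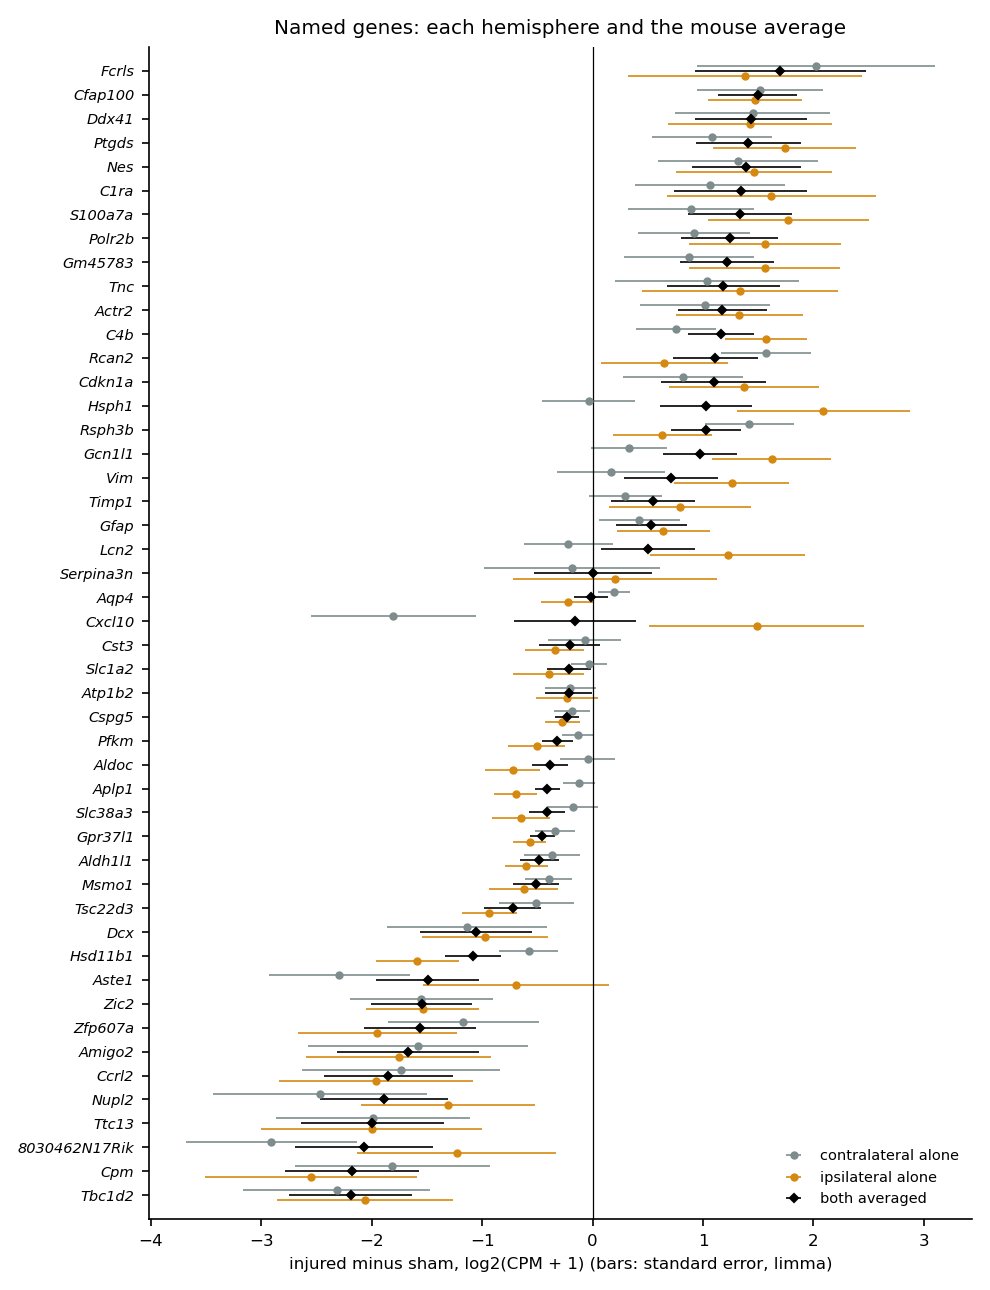
Injured minus sham differences of log2(CPM + 1) for the 48 genes named by rule, for the contralateral libraries alone (grey), the ipsilateral libraries alone (orange) and the average of both (black), with standard errors from limma. Cfap100, Zic2 and Ttc13 lie at nearly the same place on both sides, whereas Cxcl10 lies at -1.81 contralaterally and 1.49 ipsilaterally.

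Most genes of astrocyte function had negative differences, and few of them passed the unadjusted threshold. Of the 20 astrocyte markers 19 had negative differences, with a median of -0.22 against -0.07 over all genes, and 2 were lower at an unadjusted p under 0.05, where 1.64% of all genes were. Aldh1l1, a folate enzyme used as an astrocyte marker, was 9.25, 9.34, 9.37, 9.75 and 10.25 in the shams and 8.51 to 9.43 in the injured mice (difference -0.48, SE 0.18, exact permutation p = 0.00711). Aldoc, the astrocyte aldolase, was 12.97 to 13.95 in the shams and 12.76 to 13.64 in the injured mice (difference -0.38, SE 0.16, exact permutation p = 0.0390). The Aldh1l1 difference was -1.11 among mice with prefix a8 in their name and -0.11 among those with prefix a9, and the Aldoc difference was -0.88 and -0.05. Without the sham mouse a8_15 the Aldh1l1 difference was -0.32 (p = 0.0787 in limma). The Aldoc p in limma was 0.127 without a8_15 and 0.136 without a8_16, with a difference of -0.25 in the latter fit. The median of the astrocyte markers was -0.36 with prefix a8, -0.03 with prefix a9 and -0.03 with voom quality weights. What the prefix stands for is not given in the sources used here. Aqp4, the water channel of the endfeet (-0.02, SE 0.16), Slc1a2, the glutamate transporter GLT-1 (-0.21, SE 0.20), Atp1b2, a subunit of the sodium pump (-0.22, SE 0.21), and Cst3, the protease inhibitor cystatin C (-0.21, SE 0.28), differed by about their error or less in the average. For Cst3 this average joined -0.67 with PTE+ mice alone to 0.025 with PTE- mice alone.

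Of the 11 genes for glutamate and GABA handling 9 had negative differences, with a median of -0.40. The glutamine transporter gene Slc38a3 was lower (-0.42, SE 0.16, exact permutation p = 0.0178), with 9.47 to 10.31 in the shams and 8.98 to 9.99 in the injured mice, and its p in limma was 0.0524 without a9_9 and 0.0779 without a9_11. The glutamate transporter gene Slc1a3 (-0.40, SE 0.21) and Glul, the glutamine synthetase gene (-0.28, SE 0.15), had unadjusted p of 0.0711 and 0.0689 in limma. Of the 19 cholesterol genes 17 had negative differences, also with a median of -0.40, and Msmo1, a sterol oxidase, was the 1 below p of 0.05 (-0.51, SE 0.21, exact permutation p = 0.0320). Without the sham mouse a8_15, a9_9 or a9_11 the limma p of Msmo1 passed 0.05, with 0.101 as the highest. Of the 18 glycolysis genes 16 had negative differences with a median of -0.16, and Aldoc and Pfkm, a phosphofructokinase, were the 2 below p of 0.05. Aldoc is also 1 of the 20 astrocyte markers. These 3 lists thus had 1 of 11, 1 of 19 and 2 of 18 genes lower at that threshold, where 1.64% of all genes were. Pfkm was 9.22 to 9.49 in the shams and 8.41 to 9.34 in the injured mice, with 10 of 12 injured mice below every sham (difference -0.32, SE 0.14, exact permutation p = 0.00889). The Pfkm p in limma was above 0.05 without the sham mouse a8_15, a8_16 or a9_9, with 0.0804 as the highest. The glycolysis median was 0.02 contralaterally and -0.35 ipsilaterally. The proteoglycan gene Cspg5 was lower by a small amount (-0.23, SE 0.11), and lost p under 0.05 in 11 of the 17 fits that left out a mouse. The cholesterol median was -0.18 contralaterally and -0.61 ipsilaterally, and the glutamate and GABA median -0.19 and -0.40. Without the PTE- mouse a8_11, whose ipsilateral library had 9020 detected genes, these 2 medians were -0.25 and -0.26. With voom quality weights the median of the cholesterol list was -0.23 and that of the glutamate and GABA list -0.05.

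**Figure D4:**
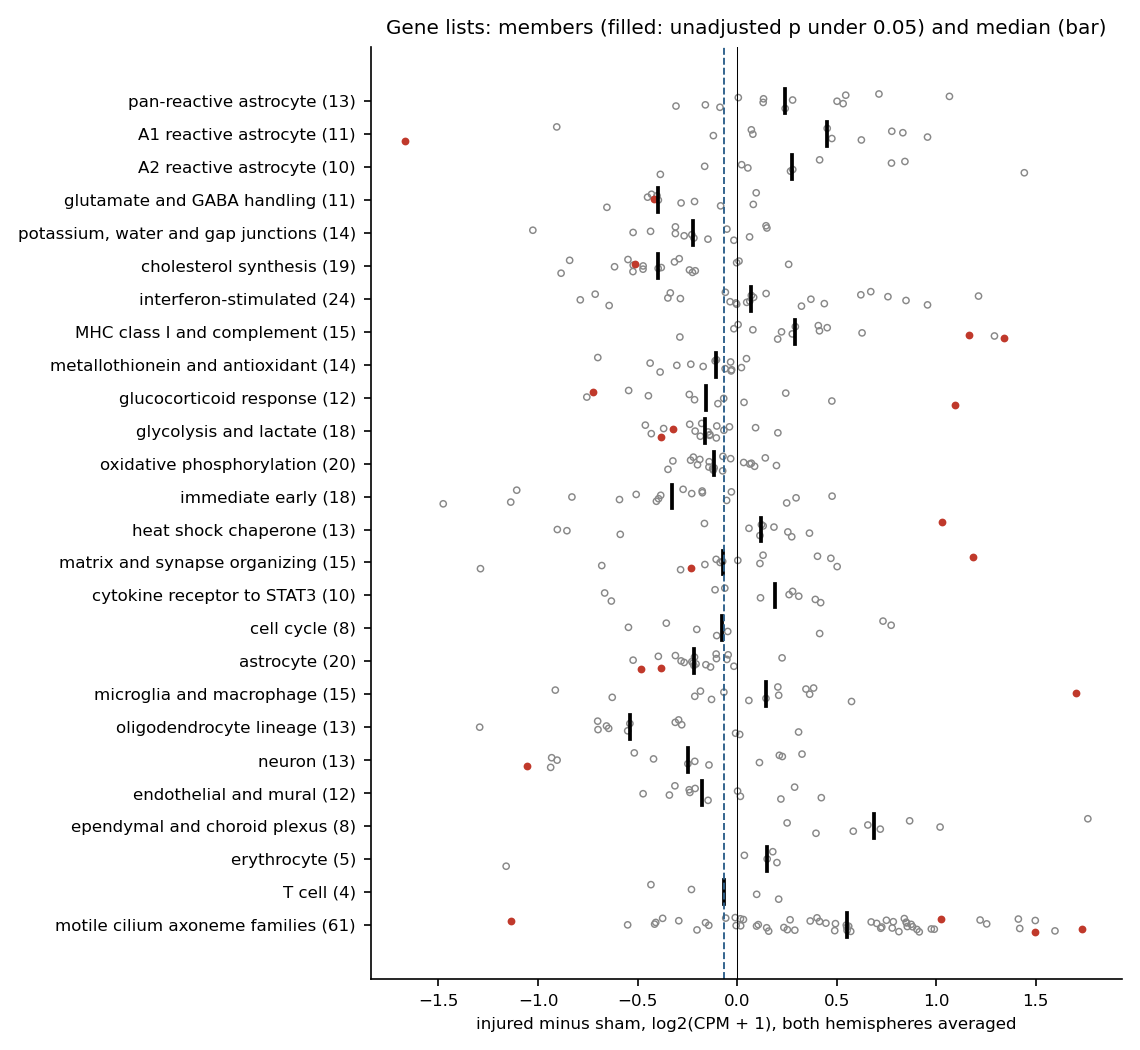
Rows are the gene lists, with the number of tested members in parentheses. The x axis gives each member's injured minus sham difference of log2(CPM + 1) averaged over both hemispheres, filled where the unadjusted p is under 0.05. Black bars are the medians of the lists, the blue dashed line is the median over all genes (-0.07), and the ependymal and axoneme lists lie farthest to the right of it.

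The remaining lists held few or no genes past the threshold. Potassium, water and gap junction genes had 11 of 14 negative differences (median -0.22), immediate early genes 15 of 18 (median -0.33), metallothionein and antioxidant genes 12 of 14 (median -0.11) and oxidative phosphorylation genes 14 of 20 (median -0.12), each with none at an unadjusted p under 0.05. Interferon-stimulated genes had 14 of 24 positive (median 0.07), genes of the cytokine receptors to STAT3 6 of 10 (median 0.19) and cell cycle genes 3 of 8 (median -0.07), again with none. Heat shock chaperones had 9 of 13 positive (median 0.12), with Hsph1 as the 1 gene called. Matrix and synapse organizing genes had 7 of 15 positive (median -0.07), with Tnc higher and Cspg5 lower. At the same threshold 0.842% of all genes were higher and 1.64% lower.

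Markers of other cells were present in both groups, with sums below the astrocyte sums, and their sums overlapped between the groups. The astrocyte sums include Apoe and Cst3, at 60878 and 25540 TPM in the PTE+ mouse a8_10, so they do not give the share of astrocytes. In that mouse the endothelial and mural markers Ly6c1 (2253 TPM) and Vtn (1918) stood above the astrocyte markers Slc1a3 (1782) and Aqp4 (591). Its endothelial and mural sum, 6862 TPM, was the highest of all mice. Ly6c1 and Slc1a3 were 956 and 601 TPM in the PTE- mouse a8_11, but 171 and 2123 TPM in the PTE+ mouse a9_19. Microglial and macrophage markers summed to 344 to 1539 TPM in the injured and 162 to 1356 in the sham mice, and 9 of 15 had positive differences (median 0.14). Fcrls, a microglial receptor gene, was the 1 of these with p under 0.05 (1.70, SE 0.77, exact permutation p = 0.0592), with a limma p above 0.05 in 7 of the 17 fits without a mouse, and it was 0.28 among mice with prefix a8 and 2.67 with prefix a9. Oligodendrocyte lineage markers summed to 691 to 1703 TPM against 991 to 2531, with 11 of 13 negative (median -0.54) and none called. Neuronal markers summed to 134 to 1206 TPM against 194 to 544, with 9 of 13 negative (median -0.25), and Dcx, the doublecortin gene of migrating neuroblasts, was 1.06 lower (SE 0.50, exact permutation p = 0.0693), with p above 0.05 in 12 of the 17 fits without a mouse. Endothelial and mural markers summed to 1302 to 6862 TPM against 2504 to 3668 (median -0.18, 12 markers), erythrocyte markers to 1357 to 9113 against 523 to 5835 (median 0.15, 5 markers), and T cell markers to 0.31 to 41.1 against 0.395 to 41.5 (median -0.07, 4 tested markers), with none called. Beside the calls of Fcrls and Dcx, 0.842% of all genes were higher and 1.64% lower at an unadjusted p under 0.05. C4b, Hsd11b1, Aplp1 and Gpr37l1 were read beside these sums, and the part of other cells in their differences was not tested.

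**Figure D5:**
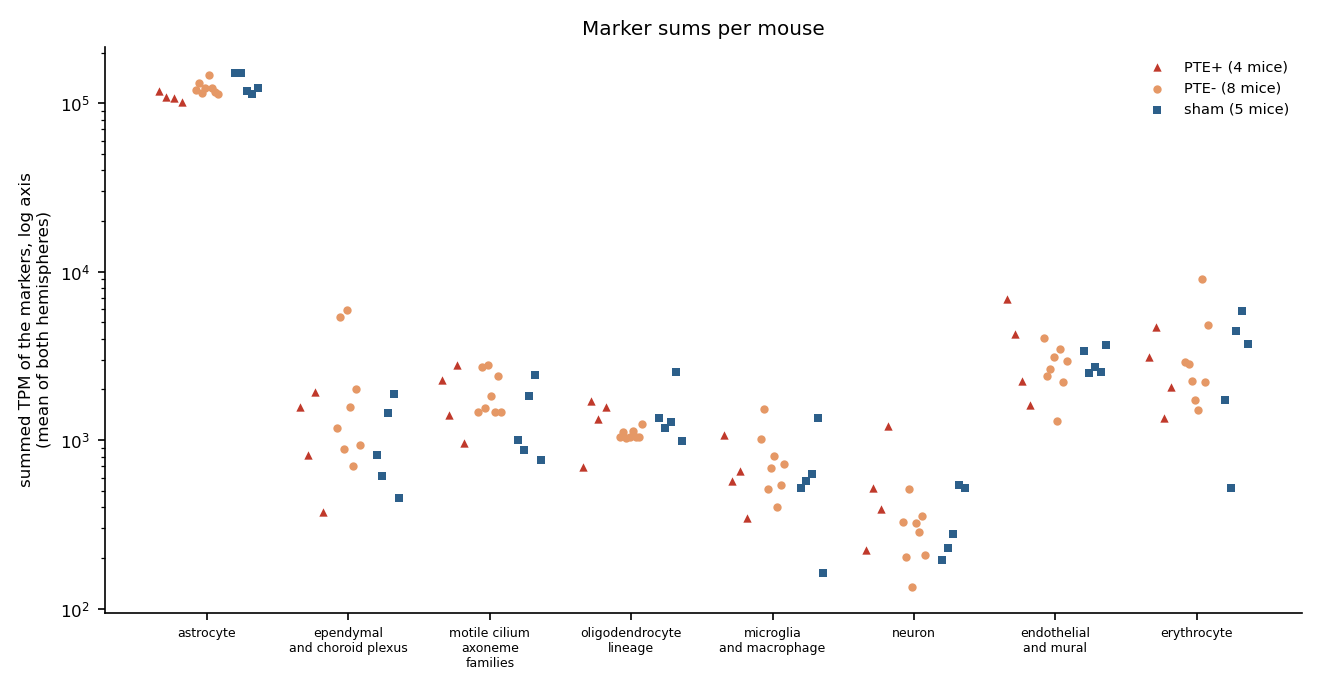
Each point is 1 mouse, and the y axis, which is logarithmic, gives the summed TPM of the markers of a cell type averaged over both hemispheres, with PTE+ (triangles), PTE- (circles) and sham mice (squares). The astrocyte sums lie at 102100 or above in every mouse, and the sums of the other types shown overlap between the groups, with 4 injured mice above all shams for the ependymal and choroid plexus markers.

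The injured group joined mice with and without epilepsy. None of the 48 named genes had an adjusted p under 0.05 between the 4 PTE+ and the 8 PTE- mice (exact permutation test, adjusted over these genes), and a group of 4 against 8 limits what could pass. Cfap100 averaged 5.05 in PTE+ and 5.28 in PTE- mice, C4b 7.68 and 7.93, Hsd11b1 7.73 and 8.19, Gpr37l1 12.08 and 12.18, and Aplp1 10.07 and 9.90. All of these lay on the same side of the sham mean. The 2 statuses parted for Cst3, which differed from the shams by -0.67 with PTE+ mice alone and by 0.025 with PTE- mice alone. The mice of each status alone gave 387 (PTE+) and 362 (PTE-) genes that met the criteria against the same 5 shams. Of these, 100 and 176 were among the 281. Among mice with prefix a9 (8 injured, 3 sham) and those with prefix a8 (4 injured, 2 sham) the differences were 1.38 and 1.66 for Cfap100, 1.37 and 0.82 for C4b, -1.08 and -1.04 for Hsd11b1, -0.41 and -0.50 for Gpr37l1, and -0.29 and -0.64 for Aplp1. The other named genes kept their sign under both prefixes if they were among the 24 chosen by p, a choice that already made a shared sign likely. Without the 4 mice that have a library under 12000 detected genes, a choice made after seeing the data, 345 genes met the criteria (158 higher, 187 lower), of which 110 were among the 281.

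The 3 injured mice with a contralateral library only, which took no part in the average, were set against the 5 contralateral sham libraries. These sham libraries also entered the choice of the genes, so the values are a description. For the 12 higher genes chosen by p, 26 of 36 values lay above the mean of these sham libraries. For the 12 lower genes, 27 of 36 lay below it. All 3 mice did so for 3 of the 12 higher and 5 of the 12 lower genes. How often this held over all genes was not computed. The library of the PTE- mouse a9_20 had 25371887 counts, below each of the 34 libraries, and 11756 detected genes. In it the lower genes Tbc1d2, 8030462N17Rik, Aste1 and Ccrl2 were 0, whereas Cpm was 7.97, above its sham mean of 4.20. Aplp1 was 10.02, 10.21 and 10.25 against a sham mean of 10.26. Hsd11b1 was 9.13, 9.53 and 7.70 against 9.12, so only 1 of the 3, a9_20, lay below it.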

How the data were processed

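Estimated counts and TPM per gene of the 34 libraries of 17 mice were used. The authors trimmed reads with Trim Galore 0.6.4 and ran RSEM 1.2.28 with Bowtie2 2.4.1 on mm10, and they deposited these estimated counts, not normalized and as whole numbers, together with the TPM of the same run, which is scaled to transcript length and library total. The annotation release is not given in the sources used here. Symbols and positions were taken from GENCODE vM21 for GRCm38, which matched 21933 of 21975 identifiers. Fractional RSEM assignment divides reads between near-identical genes, and the kit does not mark the strand.

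The analysis used limma 3.58.1 and edgeR 4.0.16 (R 4.3.3). Genes passing filterByExpr (side by surgery) were scaled by TMM to CPM, log2(CPM + 1) was averaged over both sides of a mouse, and limma with an intensity trend compared injured with sham, with adjustment by Benjamini and Hochberg over all 15445 genes. The criteria were an unadjusted p under 0.05, 1.2-fold and a mean TPM above 5. Named genes were also tested by exact permutation over the mice. The replicates are separate mice. Since the sources do not say whether they were processed together, the p-values measure the spread between these mice. Libraries with the same mouse name come from the same animal, so they were treated as paired by averaging, and their consensus correlation was 0.069.

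The genes named were those of smallest p, up to 12 higher and 12 lower, that met the criteria with the same sign on both sides, 11 genes named whatever their values (Gfap, Vim, Lcn2, Timp1, Cxcl10, Serpina3n, Cst3, C4b, Aqp4, Slc1a2, Atp1b2), list members with an unadjusted p under 0.05, and the most abundant members of lists. The comparison, these genes and the lists were chosen with earlier results of these data known. Lists were described without a test. The alternatives were other scaling, filters, pseudocounts, TPM, edgeR and DESeq2 1.42.0 on summed counts, the libraries with the mouse as a block, quality weights, covariates, each side, prefix or PTE status alone, all 37 libraries, and leaving out each mouse. The procedure was tested on simulated counts. The minimum of 3 counts reflects counting error alone, since no molecular identifiers are named.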

Additional observations from a re-analysis of the deposited data

Results flagged for a closer look

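In 144 groups of 4, 5 or 8 mice (48 named genes, 3 groups each), 14 held a mouse whose gap to the nearest other mouse was large for the range of its group (Dixon's criterion at 95%), which is 9.7% of the groups, where chance alone gives about 5%. All values are log2(CPM + 1) averaged over both hemispheres.

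Sham mice stood apart in 8 of them. The sham mouse a9_9 was high for Cfap100 (4.80, the others 3.14 to 3.61). The sham mouse a8_15 was high for Rcan2 (5.76, the others 4.28 to 4.68) and for C1ra (1.88, the others 0 to 0.04). The sham mouse a8_16 was low for Tbc1d2 (2.34, the others 3.59 to 3.84). The sham mouse a9_10 was low for Gpr37l1 (12.10, the others 12.65 to 12.78), for Aplp1 (10.19, the others 10.38 to 10.45) and for Cspg5 (10.81, the others 11.03 to 11.12), and it was the only sham with Lcn2 (1.26, the others 0). For Cfap100, Rcan2, C1ra, Tbc1d2, Gpr37l1, Aplp1 and Cspg5 the sham mouse that stood apart lay on the side of the injured mice.

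Among the PTE- mice, a9_13 was high for Gfap (11.51, the others 9.29 to 10.21) and for Lcn2 (3.20, the others 0 to 1.42). The PTE- mouse a9_14 was low for Vim (6.39, the others 8.19 to 9.67), a9_16 was at 0.00 for Ccrl2 (the others 1.84 to 3.32), and a8_9 was low for Aldh1l1 (8.51, the others 8.99 to 9.38). Without a9_14 the Vim difference was 0.88 (unadjusted p = 0.0284 in limma), and without the sham mouse a9_11 it was 0.34 (p = 0.430 in limma). The Gfap difference was 0.38 without a9_13 and 0.31 without a9_11. The PTE+ mouse a9_17 was the only 1 of its group of 4 with Timp1 (0.45, the others 0).

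The 3 injured mice with a contralateral library only lay beyond all 5 contralateral sham libraries for 2 of the 48 genes. For how many of all genes this held was not computed, so the 2 genes are given as values only. The lowest of the 3 was 10.02 for Ptgds, where the shams reached 9.32, and the highest was 1.92 for 8030462N17Rik, where the shams began at 2.97. The same sham libraries entered the choice of these genes.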

How the results depend on the processing

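The number of genes that met the criteria was 281, and it stayed within 1.5 times of that under the scaling, filter, pseudocount, covariate, prefix, side and status alternatives, but DESeq2 on summed counts gave 440 (287 higher, 153 lower), of which 157 were among the 281. A similar number did not mean the same genes. Of the 281, 57 recurred with prefix a8 alone, 94 with prefix a9 alone, 61 contralaterally and 97 ipsilaterally. With PTE+ mice alone 100 recurred, with voom quality weights 91 and without the sham mouse a9_9 104. More were kept with RLE size factors (242) and with the prefix as a covariate (272). Treating the 34 libraries separately gave 303 with the mouse as a replicate block and 347 without the block, and the block left no gene with an adjusted p under 0.05. Leaving out each mouse gave 213 to 426, and 426, without the sham mouse a9_10, was the one beyond 1.5 times. The number with an adjusted p under 0.05 was 0 in the comparison reported and in every fit without a mouse. It was 1 without the filter on low counts and 1 on log2(TPM + 1), both times Olfr1383, which had a mean of 0.853 TPM, 1 with voom quality weights (Gpr171, 0.59 TPM) and 18 with DESeq2. The median difference over all genes was -0.07 here, -0.26 with prefix a8 alone, -0.15 without the sham mouse a9_9, -0.14 at a pseudocount of 0.1, 0.09 in edgeR and 0.105 in DESeq2 on summed counts. The 24 genes chosen by p gave 907 values under the alternatives, of which all 907 kept their sign and 826 had an unadjusted p under 0.05. These fits share most mice with the one that chose the genes. The sign on each side taken alone was fixed by the choice, so it could not have differed. Moves of list medians were set against the SD of a list's mouse values within the groups, which was large for some lists. The ependymal median was 0.69 in the average and 0.05 contralaterally (SD 0.95). Neuronal markers had -0.54 contralaterally and 0.18 ipsilaterally (SD 0.68), and microglial markers 0.44 and -0.32 (SD 1.03), and none of these counted as moved. Of 950 medians of lists, 938 moved by less than 1 such SD, which does not show that these lists were stable. The 12 others were the A1 list (-0.17) and the STAT3 list (-0.65) with prefix a8 alone, the glutamate list with quality weights (-0.05), the cell cycle list in edgeR (0.77) and DESeq2 (0.80), the T cell list in DESeq2 (-1.57), the glycolysis list contralaterally (0.02) and ipsilaterally (-0.35), and the erythrocyte list with prefix a8 (1.93), with prefix a9 (-0.97), contralaterally (1.33) and ipsilaterally (-1.05).

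A few named genes changed sign, among them Hsph1, which had an unadjusted p under 0.05 in the average. Cxcl10 was 0.89 in edgeR, 0.92 in DESeq2, 0.14 with quality weights, 0.061 with prefix a9 alone, 1.49 ipsilaterally and 0.10 without the 4 mice that have a library under 12000 detected genes, and -0.35 to 0.19 when each mouse was left out. Aqp4 was 0.028 with RLE, 0.013 in edgeR, 0.042 in DESeq2, 0.064 with quality weights, 0.10 with prefix a9 alone, 0.19 contralaterally, 0.0078 with PTE+ mice alone and 0.088 without the mice with few detected genes, and -0.059 to 0.044 when each mouse was left out. Serpina3n was -0.24 at a pseudocount of 0.1, -0.70 with prefix a8 alone, -0.19 contralaterally and -0.066 with PTE- mice alone, and -0.17 to 0.24 when each mouse was left out. Cst3 was 0.025 with PTE- mice alone, Slc1a2 0.10 with quality weights and 0.058 with prefix a9 alone, Lcn2 -0.22 contralaterally and Hsph1 -0.037 contralaterally. The cause of these changes was not tested. The 11069 genes that were not above 3 counts in all 34 libraries were measured less precisely. Their median standard error was 0.54, against 0.34 for the 4376 genes above 3 counts in all of them.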

Other observations

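The hemoglobin genes differed between the sides in a way that the average hides. Erythrocyte markers had a median difference of 1.33 contralaterally and -1.05 ipsilaterally, and 0.15 in the average. Hba-a1 was 1.45 contralaterally and -1.05 ipsilaterally (exact permutation p of the contrast = 0.0100), and its near-identical copy Hba-a2 was 1.41 and -1.11 (exact permutation p = 0.00808), so they are a single observation, and neither p is adjusted. Apoe, which codes for the lipid carrier apolipoprotein E, was 0.11 contralaterally and -0.37 ipsilaterally (exact permutation p = 0.0162, not adjusted), at 59630 TPM in injured and 64790 in sham mice. Ifitm3, an interferon-induced membrane protein, was 0.90 contralaterally and 0.80 ipsilaterally, and its averaged difference of 0.85 (SE 0.43) had an unadjusted p of 0.0638 in limma. Hba-a1, Hba-a2, Apoe and Ifitm3 are among the most abundant members of their lists, and they were singled out here after their values were seen.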
